A study of Mus musculus with 32 samples.

Results

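Irradiated blood of Scid mice was set directly against irradiated blood of ATM-deficient mice. The comparison took the 5 arrays titled Scid 3 Gy and the 6 arrays titled ATM-KO 4 Gy, 11 of the 32 arrays of the series. It covered every gene well above background on 4 or more arrays of 1 or more of the 6 groups of the series. Of these genes, 1044 were so on no Scid 3 Gy array and 578 on no ATM-KO 4 Gy array. Each array held RNA of 1 male mouse labelled as strain C57BL/6, with genotype Scid or ATM-/-, and the blood was taken by cardiac puncture 24 h after X-ray exposure or sham treatment. The dose was set for each genotype by its lethality, so the Scid mice received 3 Gy and the ATM-/- mice 4 Gy, and genotype and dose cannot be told apart. The sham-treated (0 Gy) arrays of the same genotypes, 5 of each, show which differences were there without exposure. Their group means share no array with the irradiated comparison. The tests of both comparisons share 1 estimate of spread per gene from all 32 arrays. Globin transcripts had been reduced in all samples, and the animals' age was not given in the sources used here. Whole blood mixes many cell types, so fewer cells of a type and less RNA per cell cannot be told apart in any value below.

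X-rays break DNA strands. The kinase ATM senses such breaks and signals to cell cycle checkpoints and to the transcription factor p53, while the kinase encoded by Prkdc, which carries the Scid mutation, works in the end-joining reaction that seals breaks and that also assembles B and T cell receptor genes from gene segments. Scid mice therefore lack most mature B and T cells, whereas ATM-deficient mice have them, although their T cell numbers are reduced.

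A level here is the log2 signal of a gene's probe minus the 75th percentile of its array, and a difference is the mean level in Scid 3 Gy minus that in ATM-KO 4 Gy, so that a negative value is lower in Scid. Between 32.55 and 43.26% of probes were well above background on the Scid 3 Gy arrays, and between 20.12 and 48.17% on the ATM-KO 4 Gy arrays. Correlations between arrays of a group ran from 0.921 to 0.951 in Scid 3 Gy and from 0.747 to 0.955 in ATM-KO 4 Gy. The number of arrays limits the precision. The probes of both mutated genes, Atm and Prkdc, were too dim to be tested, and so was that of the immunoglobulin heavy chain gene Ighm. None of them gives a check of the genotype labels.

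Several arrays stood apart. ATM-KO 4 Gy replicate 6 was the dimmest, with 20.12% of probes well above background. ATM-KO 4 Gy replicates 3 and 5 held liver transcripts, with albumin (Alb) at 9.81 and 6.39 against -3.48 to -1.53 on the other 4, and Scid 3 Gy replicate 4 held heart muscle transcripts, with Myh6 at 4.27 against -1.52 to -0.2 on the other 4. ATM-KO 4 Gy replicates 1 and 4 and Scid 3 Gy replicate 2 were high in interferon-induced genes (Ifit3 at 3.69, 3.47 and 3.86, against at most -0.01 on the other 8 irradiated arrays). Among the sham arrays, Scid 0 Gy replicate 4 went against its label: its level of the B cell gene Cd79b was 5.41, within the 5.09 to 6.49 of the ATM-KO 0 Gy arrays, against -3.37 to -2.25 on the other 4 Scid 0 Gy arrays. The sham counts, list medians and lymphocyte genes below are given with and without it. That array was left out after its high lymphocyte gene levels were seen. Larger differences and more calls of such genes without it follow from that choice and give no independent support.

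The differences that carry the comparison were read by these 60-base probes, of which the last 30 bases are shown, 5′ to 3′, with positions of the whole probe in build mm9 as the files give them. Capitals mark the polyadenylation hexamer AATAAA where it occurs. The first 5 are the lymphocyte genes that were most reduced in Scid 3 Gy, and the last is B2m, a gene that was higher.
Cd79b, chr11:106172780-106172839, minus strand: agaacacactggcttcaagaggagtctagg
Ms4a1, chr19:11325367-11325426, minus strand: gagtagtttatttggtctttcatgattcac
Ly6d, chr15:74592551-74592610, minus strand: catggaagatgggggacagacatgcttcca
Pou2af1, chr9:51048121-51048180, plus strand: tttgcaacattttcAATAAAgattggttag
Cd3d, chr9:44794171-44794402, plus strand: agatacccagtacagccgtcttggagggaa
B2m, chr2:121978401-121978460, plus strand: taatatgctatacaatttatgcacgcagaa

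In Scid 3 Gy, a group of genes of B and T lymphocytes was lower, among them Ms4a1 by at least 38.9-fold and Cd2 by 5.82-fold, and B2m, Jarid2, the platelet genes P2ry12, Nrgn, Slamf1 and Gp9 and the granule protease gene Elane were higher by 3.0 to 4.17-fold. Of 15177 genes tested, 238 (1.57%) were higher and 210 (1.38%) were lower at an adjusted p under 0.05. The groups did not overlap for 370 genes (2.44%) with all Scid values higher and for 286 (1.88%) with all Scid values lower. The split of higher and lower genes moved with the scaling: it was 193 higher and 627 lower with the percentile over probes detected throughout, 0 and 6 with the array median, and 5995 and 17 with spike-in probes. The lower genes had a median difference of -1.73 and the higher genes one of 1.57, beside a median of 0.18 over all genes tested. On the ATM-KO 4 Gy arrays the lower genes had a median level of -0.26, and on the Scid 3 Gy arrays -2.31, where 78 of the 210 failed to rise well above background on any array. For such a gene the fold is given below as a lower bound, taken from the bright group's mean against, on each dim array, the probe's own signal or the array's lowest signal well above background, whichever is higher.

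The number of genes that passed depended on single arrays. It was 6 without Scid 3 Gy replicate 1, 88 without replicate 3, 167 without replicate 2 and 250 without replicate 5, and it was 38 without ATM-KO 4 Gy replicate 3, 61 without replicate 2, 205 without replicate 5, 1008 without replicate 1 and 1071 without replicate 6. No gene passed with slide as a fixed block (3576 at an unadjusted p under 0.05) or after normexp background correction (245), while with slide as a random block 450 passed, among them all 448. All 448 genes kept their direction in those fits, in every fit that left out 1 of the 11 arrays and under 5 other ways of scaling the arrays (normexp, quantile normalization, the array median, the percentile over detected probes, meaning those above background on all 32 arrays, and spike-in probes), and 228 higher genes (of 238) and 201 lower ones (of 210) had the same sign on each of the 3 slides that held both groups. These genes were chosen for their differences on the same arrays, so a kept direction is no independent support for them. After normexp their median difference shrank to 0.57 for the higher and to -0.21 for the lower genes. That setting added an offset of 50 to every signal. The array's 75th percentile of processed signal was 17.7 to 111.5 in ATM-KO 4 Gy and 20.2 to 63.8 in Scid 3 Gy. An offset of that size by itself draws log2 differences of dim genes toward 0, and its part in the lost calls was not tested. Calls that held in all 11 fits with 1 array left out were those of Ly6d, P2ry10, Eml4 and Chd1l and of 1 probe without a gene symbol among the lower genes, and that of Cavin3 among the higher genes. Eml4, Chd1l, Thy1 and H2-Aa were chosen for the text after their values were seen.

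Cd79b, which encodes a signalling chain of the B cell receptor, was at -3.65, -0.01, -1.57, -3.62 and -3.4 on the Scid 3 Gy arrays and at 3.05 to 5.72 (median 3.52) on the ATM-KO 4 Gy arrays. All Scid values lay below all ATM-KO values, replicate 2 being the highest Scid array, and only 2 of the 5 Scid arrays were well above background. The difference was -6.27 (SE 1.39, adjusted p = 0.0282), with -7.29, -7.53 and -6.45 within the 3 shared slides. The call was lost without Scid 3 Gy replicate 1 (0.0904) or ATM-KO 4 Gy replicates 2 (0.055) or 3 (0.0626).

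Ms4a1, which encodes the B cell surface protein CD20, was at -3.49, -2.94, -4.29, -3.7 and -3.49 in Scid 3 Gy, not well above background on any of these arrays, and at 0.14 to 4.15 (median 2.51) in ATM-KO 4 Gy. The groups did not overlap, and the level was at least 38.9-fold lower in Scid (difference -5.92, SE 1.22, adjusted p = 0.0206, and 0.075 without Scid 3 Gy replicate 1). Ly6d, a surface protein that marks commitment to the B lineage, was at -2.76, -0.93, -4.06, -3.99 and -2.36 against 1.8 to 3.75 (median 2.62). These groups did not overlap either, and the difference was -5.61 (SE 0.96, adjusted p = 0.00718), with an adjusted p of at most 0.0411 in the 11 fits that left out an array.

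Pou2af1, a transcriptional coactivator of B cells, was at -2.56, -2.02, -4.24, -2.31 and -3.4 in Scid 3 Gy, where no array was well above background, and at 1.06 to 3.2 (median 1.55) in ATM-KO 4 Gy. It was at least 20.5-fold lower (difference -4.59, SE 1.04, adjusted p = 0.0282), a call lost without Scid 3 Gy replicates 1 or 3 or ATM-KO 4 Gy replicates 2 or 3 (0.0551 to 0.0838). The Ets-family transcription factor gene Spib, active in B cells and plasmacytoid dendritic cells, was lower, with a difference of -3.41 (SE 0.86, adjusted p = 0.0368, and up to 0.0931 with an array left out). Iglv1, a variable segment of the lambda light chain, was at least 15.7-fold lower (difference -4.05, adjusted p = 0.032, up to 0.0904). Btla, an inhibitory receptor of lymphocytes, was at least 8.62-fold lower (difference -3.66, adjusted p = 0.0312, up to 0.102).

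Not all B cell genes moved. Of the 16 genes of the list for the B cell receptor and its signalling, 15 were tested, and 1 was lower and none higher; the 6 whose groups did not overlap were all lower. The list's median difference was -0.35, and it became 0.54 when arrays were scaled on their spike-in probes, which moved the median of all genes from 0.18 to 1.08. The receptor chain gene Cd79a had a difference of -1.92 (adjusted p = 0.0903), with no overlap between the groups, while the signalling kinases Syk and Btk stood at 0.11 and -0.35 and the tetraspanin gene Cd81 at 1.18 (0.0953). In the list for B cell identity and maturation, 19 of 19 genes were tested. The 4 lower genes were Ms4a1, Ly6d, Pou2af1 and Spib, 7 genes did not overlap between the groups, all lower, and the median was -0.93. For both lists the shares over all genes were 1.38% called lower and 1.88% not overlapping with all Scid values lower. The B lineage transcription factor genes Ebf1 (-0.9, adjusted p = 0.324) and Pax5 (1.75, 0.0734) did not pass. Of 14 immunoglobulin genes only 2 were tested, Iglv1 and the joining chain gene Jchain (-1.16), and 1 was lower.

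Cd79a was read by 2 probes that differed in sign, and so was the T cell surface receptor gene Cd6. The brighter Cd79a probe is placed by the files on chromosome 12 and gave -1.92, and the other is placed on chromosome 7 and gave 0.67. The brighter Cd6 probe gave -3.59 (adjusted p = 0.047, passing in only 3 of the 11 fits with an array left out) and the other 0.81. Their last 30 bases are shown so that the pairs can be compared.
Cd79a, chr12:53180558-53180617, plus strand: gtgatAATAAAtccttcccaaagcaaaaaa
Cd79a, chr7:25684357-25684614, plus strand: gtacttacctccgcgtgcgcaatccagtcc
Cd6, chr19:10863829-10863888, minus strand: cagagattaaacgattactgagtgaaaact
Cd6, chr19:10867422-10868678, minus strand: caccattgccaaagaagctcctatgctgtt

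**Figure D1:**
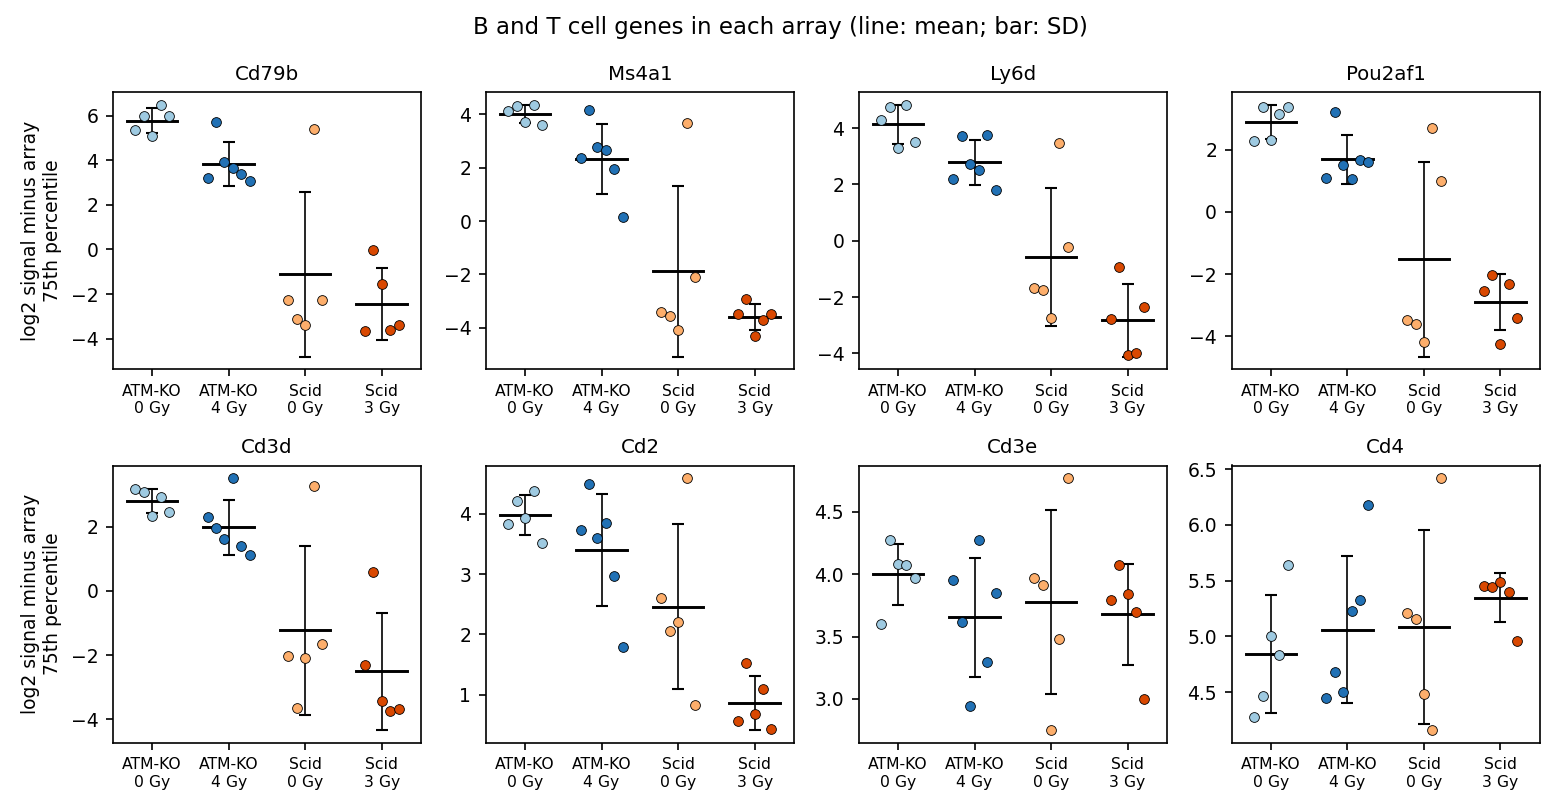
Level of 8 B and T cell genes (y axis, log2 signal minus the array's 75th percentile) on each array of ATM-KO 0 Gy, ATM-KO 4 Gy, Scid 0 Gy and Scid 3 Gy; points are mice, lines group means and bars SD. Cd79b, Ms4a1, Ly6d, Pou2af1, Cd3d and Cd2 lie lower on all Scid 3 Gy arrays than on any ATM-KO 4 Gy array, Cd3e and Cd4 overlap, and 1 Scid 0 Gy array (replicate 4, Cd79b at 5.41) lies with the ATM-KO arrays.

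The MHC class II genes, which encode the proteins by which B cells, dendritic cells and some monocytes present antigen to T cells, had lower means in Scid 3 Gy, and none passed the test. Of 10 listed genes 9 were tested and 8 had a lower mean. In limma's test 7 of these had an unadjusted p under 0.05, beside 4270 of all 15177 genes in either direction. The groups did not overlap for 6, all lower, beside 1.88% of all genes. The median difference was -2.01, within -2.36 and -0.68 under the 5 other scalings. H2-Aa, the class II alpha chain gene, was at -0.9, -1.36, 0.91, 0.03 and -0.19 in Scid 3 Gy and at 0.96 to 4.12 (median 1.88) in ATM-KO 4 Gy. The highest Scid array lay just below the lowest ATM-KO array, and the difference was -2.6 (SE 0.75, adjusted p = 0.0508). It passed in 2 of the 11 fits with an array left out, without ATM-KO 4 Gy replicate 1 (0.0435) or 6 (0.0375). The highest adjusted p in those 11 fits was 0.141. The invariant chain gene Cd74 (-2.57, adjusted p = 0.0726), H2-Ab1 (-2.25, 0.0864) and H2-Eb1 (-2.06, 0.0957) had differences of like size, and the class II transactivator gene Ciita stood at 0.28.

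T cell genes divided within the receptor complex itself. Cd3d, the delta chain of CD3, was at -2.31, 0.6, -3.42, -3.74 and -3.67 in Scid 3 Gy and at 1.12 to 3.51 (median 1.79) in ATM-KO 4 Gy. The groups did not overlap, Scid 3 Gy replicate 2 being the nearest and the only Scid array well above background, and the difference was -4.49 (SE 1.02, adjusted p = 0.0282). Cd3g, the gamma chain, was not well above background on any Scid array and was at least 5.41-fold lower (difference -2.44, adjusted p = 0.0413), with overlap through ATM-KO 4 Gy replicate 2 at -1.7. By contrast, Cd3e, the epsilon chain, was at 3.79, 4.07, 3.84, 3.7 and 3.0 against 2.94 to 4.27 (median 3.73), and its difference was 0.02 (SE 0.37, adjusted p = 0.97). The difference for Cd4 was 0.28 (SE 0.4, adjusted p = 0.641), on bright arrays throughout, and that for Cd8a was -0.77 (adjusted p = 0.288), at levels that were well above background on 1 of the 11 arrays. Whether the calls for the 3 CD3 chains differ from each other was not tested.

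Cd2, an adhesion receptor of lymphocytes, was at 0.56, 1.52, 0.68, 1.1 and 0.44 in Scid 3 Gy and at 1.79 to 4.5 (median 3.66) in ATM-KO 4 Gy. All 11 arrays were well above background, the groups did not overlap, and the difference was -2.54 (SE 0.54, adjusted p = 0.0219), or 5.82-fold, and its other probe gave -2.52. Thy1, a surface marker of T cells, was likewise bright on every array and fell by 2.39 (adjusted p = 0.0419). Of 20 genes in the list for the T cell receptor complex and coreceptors, 19 were tested. The 5 lower genes were Cd3d, Cd6, Cd2, Cd3g and Thy1, none was higher, 4 did not overlap between the groups, and the median was -1.14. Over all genes 1.38% were called lower and 1.88% did not overlap with all Scid values lower. The receptor-linked kinase gene Lck had a difference of -1.54 (adjusted p = 0.0841) and the zeta chain gene Cd247 one of 1.53 (0.104).

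In the list of T cell transcription factors and genes of naive lymphocyte homing, 15 of 18 genes were tested. Of these 3 were lower, beside 1.38% of all genes, and none higher, and the median was -1.23. Il7r, the receptor for the lymphocyte survival factor interleukin 7, differed by -2.82 (SE 0.8, adjusted p = 0.0476), the transcription factor gene Lef1 by -2.57 (SE 0.68, 0.0423) and the transcription factor gene Ets1 by -2.5 (SE 0.65, 0.0408). The homing receptor gene Ccr7 (-2.53, adjusted p = 0.0686) did not pass. Calls of the T cell genes rested on single arrays: Cd3d passed in 7 of the 11 fits with an array left out, Cd2 in 8, Cd3g in 5, Lef1 and Ets1 in 4, and Thy1, Cd6 and Il7r in 3. Without Scid 3 Gy replicate 1 the adjusted p was 0.0838 for Cd3d and for Cd2, 0.104 for Thy1 and 0.143 for Il7r, and without ATM-KO 4 Gy replicate 3 it was 0.0638 for Cd3d and 0.0501 for Cd2.

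Genes of several other roles were lower in Scid 3 Gy. P2ry10, a receptor for lysophospholipids on lymphocytes, was at -3.21, -1.79, -4.12, -2.19 and -1.25 in Scid 3 Gy, not well above background on any array, and at 0.02 to 0.96 (median 0.57) in ATM-KO 4 Gy. With no overlap it was at least 6.95-fold lower (difference -3.05, SE 0.5, adjusted p = 0.00635). Eml4, which encodes a microtubule-associated protein, was at -3.82, -3.37, -2.85, -2.82 and -2.36 against -0.95 to -0.14 (median -0.41) and was at least 4.31-fold lower (difference -2.58, SE 0.43, adjusted p = 0.00635). Chd1l, a chromatin remodelling enzyme that acts at damaged DNA, was lower (difference -1.61, SE 0.31, adjusted p = 0.0159), and only 2 of the 6 ATM-KO 4 Gy arrays were well above background for it.

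The lysosomal ion channel gene Mcoln2 (at least 5.39-fold), the zinc finger repressor gene Zbtb32 (at least 7.2-fold) and Nxpe3 (at least 7.96-fold) were lower. They were named as genes of largest fall, for which no overlap was a condition of the choice. Acp5, tartrate-resistant acid phosphatase of osteoclasts and macrophages, was bright on all 11 arrays, at 0.76 to 2.89 in Scid 3 Gy and 3.7 to 5.08 in ATM-KO 4 Gy (difference -2.88, SE 0.66, adjusted p = 0.0282). Of the inflammation and NF-kB list, 21 of 30 genes were tested and 2 were lower, both with no overlap: Birc3, an inhibitor of apoptosis induced by NF-kB (at least 3.2-fold, difference -1.78, SE 0.37, adjusted p = 0.0198), and Nfkb1, which encodes the NF-kB subunit p50 (at least 3.02-fold, difference -1.72, SE 0.4, adjusted p = 0.0283, well above background on 3 of the 6 ATM-KO 4 Gy arrays). The median of that list was -0.53, and 0.36 with spike-in scaling. Among all genes 1.38% were called lower and 1.88% did not overlap with all Scid values lower. Without Scid 3 Gy replicate 1 the adjusted p of both genes was 0.0838.

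Of 28 tested of 30 mature neutrophil genes, 1 was lower: the chemokine receptor gene Cxcr4 (difference -1.56, SE 0.42, adjusted p = 0.0436), which lymphocytes express as well. Scid 3 Gy replicate 2, at 0.5, overlapped the 0.06 to 2.09 of ATM-KO 4 Gy. Of 11 tested of 20 eosinophil, basophil and mast cell genes, with a median of 0.49, 1 was lower: the interleukin 5 receptor gene Il5ra, of eosinophils and some B cells (at least 3.94-fold, difference -1.98, adjusted p = 0.049), a call that held in 2 of the 11 fits with an array left out. Of 15 tested of 16 dendritic cell genes, with a median of -0.17, 2 were lower: Ly6d, which the B cell list holds too, and Cd83, which activated B cells also express (difference -2.52, adjusted p = 0.047, passing in 3 of 11). The plasmacytoid marker Siglech stood at -0.81 (adjusted p = 0.275). The share called lower among all genes was 1.38%.

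Among the genes that were higher in Scid 3 Gy, B2m, the light chain of MHC class I molecules, was at 10.14, 10, 9.53, 9.89 and 9.88 in Scid 3 Gy and at 6.17 to 9.45 (median 8.01) in ATM-KO 4 Gy. The lowest Scid array lay just above the highest ATM-KO array, replicate 1, while ATM-KO 4 Gy replicate 6 was the lowest by far. The difference was 1.81 (SE 0.44, adjusted p = 0.0312), or 3.51-fold, and 1.43 without replicate 6; the call was lost without Scid 3 Gy replicates 1, 2 or 3 or ATM-KO 4 Gy replicates 2 or 3 (0.0525 to 0.103). Jarid2, a cofactor of Polycomb repressive complex, was at 3.52, 3.45, 3.1, 2.92 and 3.37 against -0.8 to 2.48 (median 1.16), with no overlap, and differed by 2.06 (SE 0.48, adjusted p = 0.03). Aldh3a1, an aldehyde dehydrogenase, was at 5.33 to 7.43 against 3.02 to 5.08 and differed by 2.07 (SE 0.53, adjusted p = 0.0386).

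Cavin3, a structural protein of caveolae, was at 0.18, 0.91, 0.79, 0.36 and 1.34 in Scid 3 Gy and at -2.39 to -1.26 (median -1.48) in ATM-KO 4 Gy. The groups did not overlap, the difference was 2.4 (SE 0.39, adjusted p = 0.00635), and the adjusted p stayed at or below 0.0226 whichever of the 11 arrays was left out. Only 2 of the 6 ATM-KO 4 Gy arrays were well above background for it. Other genes of largest rise were the homeobox gene Nkx1-2 (at least 4.28-fold), the keratin-associated gene Krtap16-3, the annexin gene Anxa8 and the testis pyruvate dehydrogenase gene Pdha2. Further ones were the olfactory receptor genes Olfr657 and Olfr477 and the smooth muscle calponin gene Cnn1. The transcription factor gene Sox15 (at least 2.98-fold) and the interferon alpha gene Ifna2 (at least 3.35-fold) were also among them. The differences of all these genes were 1.85 to 2.86, and no overlap was a condition of their choice. The differences of Zranb3, which remodels stalled replication forks, and Tnip3, an inhibitor of NF-kB signalling, were 1.8 (adjusted p = 0.049) and 1.96 (0.0438).

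Platelet and megakaryocyte genes had higher means in Scid 3 Gy without exception. All 34 listed genes were tested. Of these 4 were higher, beside 1.57% of all genes, and none lower, and 2 did not overlap between the groups, beside 2.44% of all genes. In limma's test 26 had an unadjusted p under 0.05, beside 4270 of all 15177 genes in either direction. The median difference was 1.31, between 0.83 and 2.2 under the 5 other scalings. P2ry12, the platelet receptor for ADP, was at 5.88, 6.06, 5.49, 5.92 and 6.34 in Scid 3 Gy and at 2.19 to 5.51 (median 3.7) in ATM-KO 4 Gy. ATM-KO 4 Gy replicates 1 and 4, at 5.51 and 5.48, reached the Scid values and the other 4 did not exceed 3.81, and the difference was 1.91 (SE 0.48, adjusted p = 0.0368). The postsynaptic and platelet protein gene Nrgn (1.78, adjusted p = 0.0416), Slamf1 (1.77, 0.0481) and Gp9, a subunit of the receptor for von Willebrand factor (1.58, 0.0475), were the other higher genes, and Pf4, platelet factor 4, differed by 1.44 (0.0736). Each of these calls failed in 7 or more of the 11 fits with an array left out. The mean level of the list was highest in ATM-KO 4 Gy on replicates 1 and 4 (5.71 and 5.82 over the mean of all genes, against 3.57 to 4.56 on the other 4), which are also the interferon-high arrays of that group, and without them the median difference was 1.86.

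**Figure D2:**
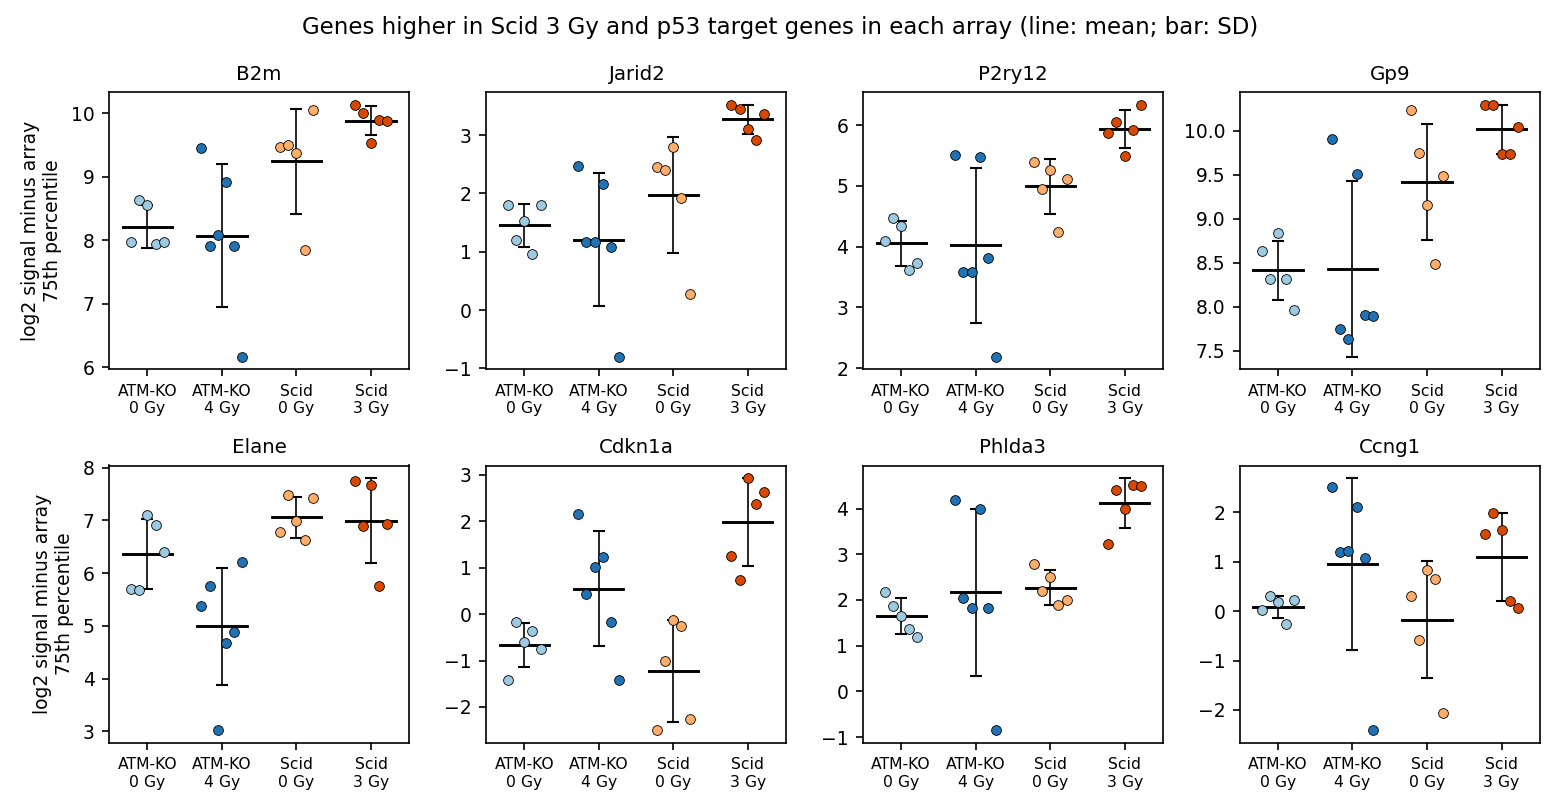
Level of 5 genes that were higher in Scid 3 Gy (B2m, Jarid2, P2ry12, Gp9, Elane) and of 3 p53 target genes (y axis, log2 signal minus the array's 75th percentile) on each array of the 4 groups; points are mice, lines group means and bars SD. B2m and Jarid2 lie higher on all Scid 3 Gy arrays than on any ATM-KO 4 Gy array, and the p53 target genes overlap.

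Elane, the neutrophil elastase gene that is transcribed in granulocyte precursors, was at 7.74, 6.89, 7.68, 5.75 and 6.93 in Scid 3 Gy and at 3.02 to 6.21 (median 5.13) in ATM-KO 4 Gy. Scid replicate 4 lay within the ATM-KO range, and the difference was 2.01 (SE 0.51, adjusted p = 0.0368, passing in 4 of the 11 fits with an array left out). It was the 1 gene that passed of 12 tested of 19 granule and precursor genes, whose median was 0.14, beside 1.57% of all genes called higher. The alarmin gene S100a8 of mature neutrophils stood at -1.28 (adjusted p = 0.155), and the median of the mature neutrophil list was -0.56.

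No p53 target gene passed the test. Of 55 listed genes 49 were tested, and the median difference of 0.18 equalled that of all genes. At an unadjusted p under 0.05 in limma's test, 7 had a higher and 3 a lower mean, beside 4270 of all 15177 genes in either direction. Phlda3, a p53-induced inhibitor of the kinase AKT, was at 3.23, 4.4, 3.99, 4.51 and 4.49 in Scid 3 Gy and at -0.85 to 4.19 (median 1.93) in ATM-KO 4 Gy. ATM-KO 4 Gy replicates 1 and 4, at 4.19 and 3.98, reached the Scid range, and the difference was 1.96 (SE 0.56, adjusted p = 0.0502). It passed in 2 of the 11 fits with an array left out, without replicate 1 (0.0152) or 4 (0.0351). The highest adjusted p in those 11 fits was 0.105. Cdkn1a, which encodes the cell cycle inhibitor p21, was at 1.26, 0.74, 2.93, 2.38 and 2.63 against -1.41 to 2.16 (median 0.72). The groups overlapped, and the difference was 1.45 (SE 0.51, adjusted p = 0.0835). It passed in 1 of the 11 fits with an array left out (0.0355 without ATM-KO 4 Gy replicate 1), and the highest value was 0.153. The other Cdkn1a probe gave 0.64.

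The stress cytokine gene Gdf15 differed by 2.0 (SE 0.91, adjusted p = 0.151), the gene of the p53 ubiquitin ligase Mdm2 by 0.48 (0.376) and the cyclin gene Ccng1 by 0.14 (0.883). The differences of Abhd4 and of Gadd45a, a stress-induced growth arrest gene, were 0.7 and 0.23. ATM-KO 4 Gy replicate 6 had the lowest level of Phlda3, Cdkn1a, Mdm2 and Ccng1 in its group. For Ccng1 it was at -2.41 against 1.08 to 2.51 on the other 5 arrays, and without it the difference was -0.53. That array's Slc4a1, the erythrocyte anion exchanger gene, was at 9.36, near the 8.63 to 8.89 of the ATM-KO 0 Gy arrays, while the other 5 stood at 5.45 to 7.73; whether its label is right was not tested. Among genes of double-strand break repair and checkpoints, 22 of 38 were tested, none passed and the median was -0.17. The histone variant gene H2ax, which is phosphorylated at breaks, stood at 1.25 (adjusted p = 0.0835, the lowest of the list) and the end-joining gene Xrcc6 at 0.39.

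The remaining cell type lists held no called gene. None of 26 tested of 30 NK cell genes passed, and their median was 0.21. The activating receptor gene Ncr1 had a difference of -0.37, the lectin receptor gene Klrd1 one of 0.09, and the granzyme gene Gzma and the chemokine gene Ccl5 ones of 0.5 and 0.36. None of 28 tested of 31 monocyte and macrophage genes passed (median -0.24), with Csf1r, the receptor for the monocyte growth factor, at -0.5, the lysozyme gene Lyz1 at 0.63 and the integrin gene Itgam at 1.27 (adjusted p = 0.178). None of 48 tested of 49 erythroid genes passed (median 0.21): Slc4a1 stood at -0.36, the membrane skeleton gene Epb42 at 0.08, Alas2, the first enzyme of heme synthesis in red cells, at 0.61 and Isg20 at 0.66. Of 8 tested of 11 globin genes none passed (median 0.43), with Hba-a1 at 0.23 and Hba-a2 at 0.44.

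Hepatocyte genes, 17 tested of 25, had a median of -1.13, and of 0.02 without ATM-KO 4 Gy replicate 3, and none passed. The apolipoprotein gene Apoa2 was at -0.81 and the haptoglobin gene Hp at -1.13. The list score of hepatocyte genes over the mean of all genes was 7.07 and 4.46 on ATM-KO 4 Gy replicates 3 and 5 and at most 1.61 on the 5 Scid 3 Gy arrays, and the part of these arrays' liver transcripts in other differences was not tested. Heart muscle genes, 10 tested of 24, had a median of 0.82 and none passed, with Cox7a1 at 0.57 and the myosin light chain gene Myl3 at 0.8.

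None of 52 tested of 54 interferon-stimulated genes passed (median -0.42, and 0.2 without ATM-KO 4 Gy replicates 1 and 4), with Ifit3 at -0.51 and the ubiquitin-like modifier gene Isg15 at 0.42. None of 31 tested of 48 proliferation genes passed (median -0.17): the proliferation antigen gene Mki67 stood at -0.14, the securin gene Pttg1 at 0.68 and Ube2c, a ubiquitin-conjugating enzyme of mitosis, at 0.26. Nor did any of 19 tested of 27 immediate early genes (median -0.56, Jund at 0.5 and Klf6 at -0.6) or of 9 tested of 18 BCL2 family genes (median -0.46), where the survival gene Mcl1 was at -0.46, Bcl2l1 at 0.5 and the cell death gene Bax, also a p53 target, at -0.07. Of 16 tested of 20 genes of Toll-like receptors and adaptors none passed (median -0.03); Tlr7 was at 0.29, and Tlr9, whose groups did not overlap, at 0.61 (adjusted p = 0.147). None of 63 tested of 63 mitochondrial respiratory chain genes passed (median -0.44), with Cox6a1 at 0.01 and Cox8a at 0.56.

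Of 62 tested of 63 cytosolic ribosomal protein genes, Rps3 (-1.11, adjusted p = 0.0432) and Rpsa (-0.96, 0.0475) were lower, beside 1.38% of all genes. The list's median was -0.11, and a further probe of Rps3 gave 0.9. Of the 27 lists, 17 had medians that changed sign under at least 1 of 5 scalings, and the 10 that did not were those of B cell identity, immunoglobulin, MHC class II, T cell receptor, T cell factor, eosinophil, globin, platelet, hepatocyte and heart muscle genes.

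**Figure D3:**
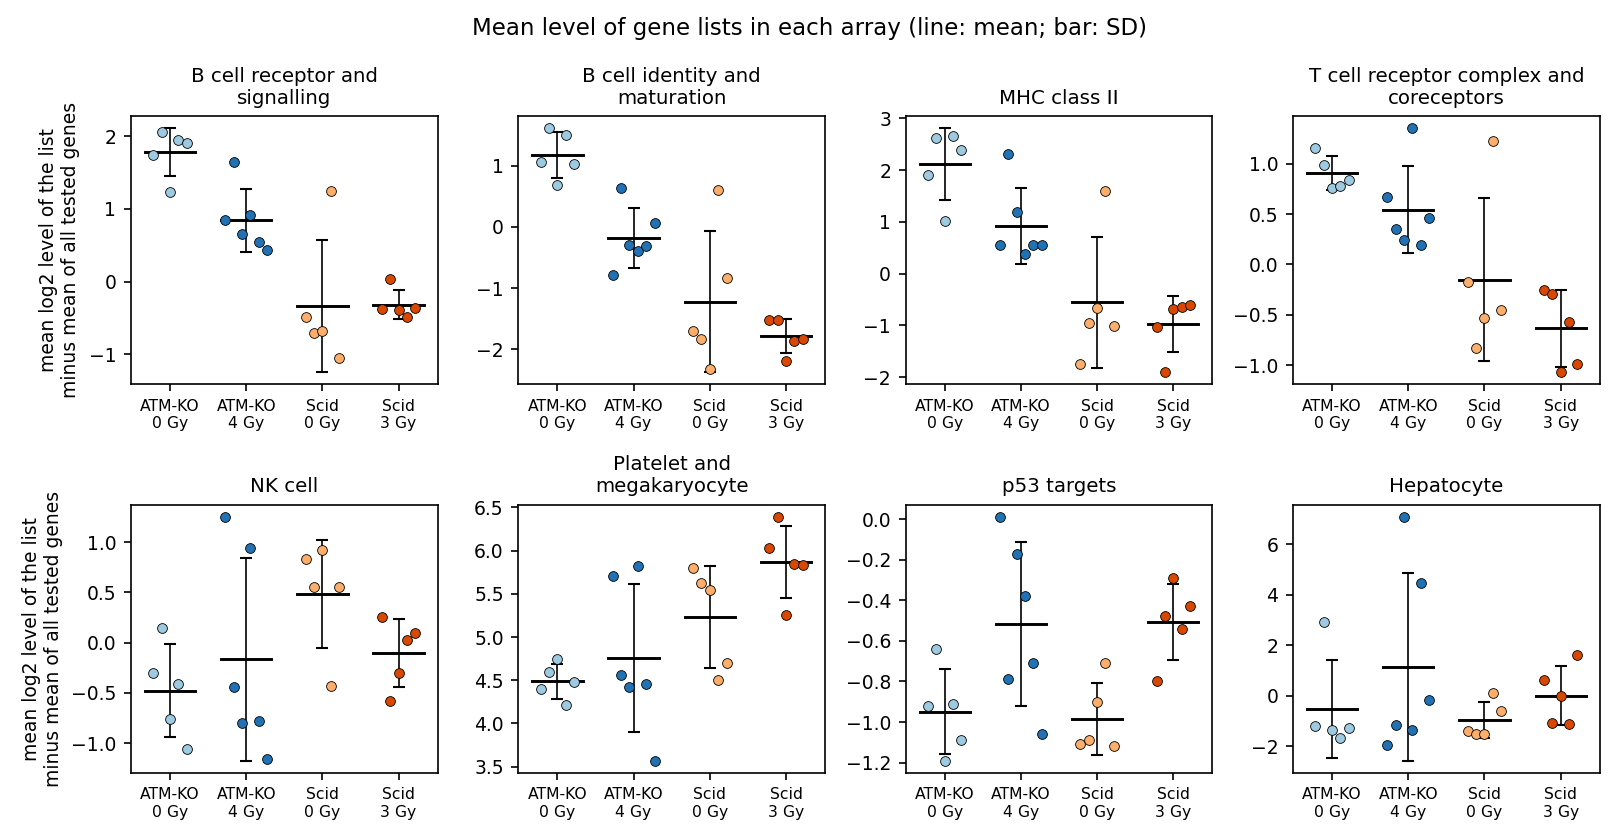
Mean log2 level of 8 gene lists on each array, minus the mean of all genes tested (y axis), in the 4 groups; points are mice, lines group means and bars SD. The B cell, MHC class II and T cell lists lie lower on all Scid 3 Gy arrays than on any ATM-KO 4 Gy array, and the NK cell, p53 target and hepatocyte lists overlap.

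Most genes that were lower in irradiated Scid blood had negative differences in sham blood too. Scid 0 Gy minus ATM-KO 0 Gy gave no higher gene (0%) and 19 lower genes (0.125%). Both comparisons took their spread from 1 fit of all 32 arrays, so their calls are not independent. With only the compared arrays in each fit, 0 genes were called at 0 Gy and 74 in irradiated blood. None of the 19 passed with slide as a fixed block or under any of the 5 other scalings, and all 19 passed with slide as a random block. Of the 210 genes lower in Scid 3 Gy, 10 were also lower at 0 Gy, which is 4.76% of the 210 and 52.6% of the 19, and 192 had a negative difference there, with a median of -0.75. Of the 238 higher genes 223 had a positive difference at 0 Gy, with a median of 0.44. The median at 0 Gy over all genes tested was 0.14, and the share of all genes with each sign was not counted. With Scid 0 Gy replicate 4 left out, 184 genes (1.21% of those tested) were lower and 19 (0.125%) higher at 0 Gy. Of the 210 lower genes 36 (17.1%, and 19.6% of the 184) were among the 184. The medians of the 210 and the 238 genes were then -1.01 and 0.62, beside 0.19 over all genes.

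Cd79b differed by -6.89 at 0 Gy (adjusted p = 0.0494), and by -8.53 (0.000464) without that array. Ms4a1 differed by -5.9 (0.0494) and by -7.29 (0.000648) without it, and Cd3d by -4.03 (0.13) and by -5.15 (0.00344). Replicate 4 was left out after its lymphocyte gene levels were seen. The smaller p-values and added calls of B cell, T cell and MHC class II genes without it are therefore no further support. Of the 9 MHC class II genes 1 was lower at 0 Gy with all arrays, at a median of -2.7, and 7 without replicate 4, at -3.26, beside a median of -2.01 and none called in irradiated blood. The shares of all genes called lower at 0 Gy were 0.125% with all arrays and 1.21% without replicate 4. Other genes stood nearer to 0 in sham blood: Chd1l differed there by -0.15 (adjusted p = 0.841), Nfkb1 by -0.09 (0.924), Anxa8 by 0.04 (0.977), Jarid2 by 0.51 (0.664) and Phlda3 by 0.62 (0.656), none of which changed its call without replicate 4. The NK cell list, with no gene called in either comparison, had a median of 1.15 at 0 Gy, and of 1.39 without replicate 4, beside 0.21 in irradiated blood. Of the 34 platelet genes 33 had a higher mean at 0 Gy and none was called, at a median of 0.85. Without replicate 4 the median was 1.09 and 1 was called, beside 0.125% of all genes called higher in that fit.

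The difference between the Scid and the ATM-KO response to exposure was tested directly, as the irradiated minus the sham difference. No gene passed in limma's test in either direction (0%), with 640 genes at an unadjusted p under 0.05, and none passed without Scid 0 Gy replicate 4 (626). With spike-in scaling 1953 genes passed, all higher, on the scaling that raised the median of all genes in the irradiated comparison. No gene named here was shown to differ more, or less, in irradiated than in sham blood at the scaling used. The estimates were 0.62 for Cd79b, -0.02 for Ms4a1, -1.54 for P2ry10, 1.56 for Cavin3 and 2.01 for Cdkn1a, each with an adjusted p of 1. Without Scid 0 Gy replicate 4 they were 2.25 for Cd79b, 1.37 for Ms4a1, -1.12 for P2ry10, 1.55 for Cavin3 and 2.25 for Cdkn1a, again with an adjusted p of 1.

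**Figure D4:**
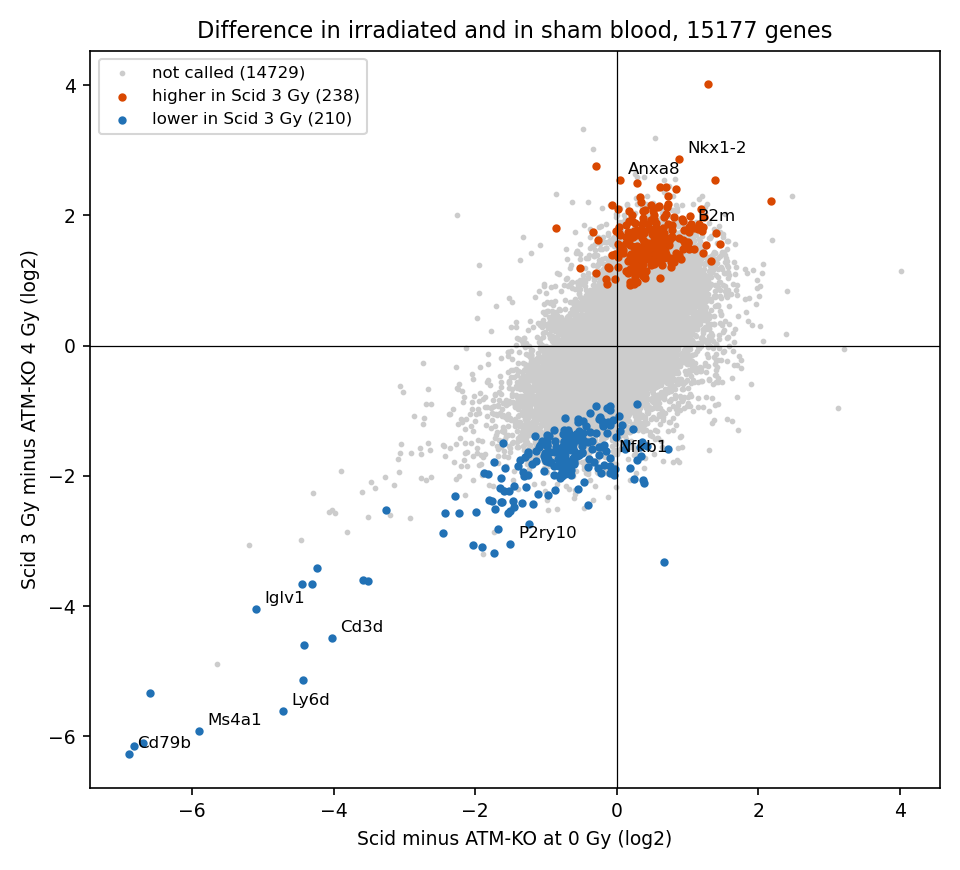
Difference of each of 15177 genes in irradiated blood (y axis, Scid 3 Gy minus ATM-KO 4 Gy, log2) against that in sham blood (x axis, Scid 0 Gy minus ATM-KO 0 Gy, log2), with called genes of the irradiated comparison in colour. The genes of largest fall, among them Cd79b, Ms4a1, Ly6d, Iglv1 and Cd3d, are low on both axes. The 238 higher genes have a median of 0.44 on the x axis, beside 0.14 over all genes.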

How the data were processed

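Per the labels, 1-colour Cy3 labelled cRNA of each mouse was hybridised to its own Agilent array. The authors deposited scanner tables whose processed signal is an intensity per spot, with background subtracted and a spatial detrend, and with no normalization between arrays, per the file headers; Feature Extraction was 11.5.1.1 per the file headers and 12.0.2 per the submitters' processing notes. The authors also deposited a series matrix on a log2 scale. On each array 98.12 to 99.12% of these lay within 0.01 of log2 intensity plus a constant for the array (medians 5.51 to 6.44), so scale and direction are known and the centring is not, and they served as an alternative.

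Control and outlier-flagged spots were left out, spots of a probe averaged, and the array's 75th percentile subtracted from the log2 intensity. Of 39429 probes, 18388 were kept, because 4 or more arrays of 1 or more of the 6 groups had them well above background. For each of 15177 genes the kept probe with the highest mean was used, and 12234 had a symbol of the reference table. A further probe also differed in sign for Csf1r (0.58 against -0.5), Itgam (-0.06 against 1.27) and Tlr7 (-0.55 against 0.29). The same held for Bcl2l1 (-0.13 against 0.5) and Epb42 (-0.44 against 0.08). The second Anxa8 probe gave 1.23 against 2.54. Every tested list member passed that filter through a group outside the comparison or through both compared groups. Group means were fitted on all 32 arrays with limma 3.58.1 (lmFit, eBayes, R 4.3.3), two-sided, with Benjamini-Hochberg adjustment over all genes, tested on simulated data first. The scan days (4) and slides (9) come from the file headers. Mice were individual animals per the study's design text.

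The text names the 15 genes of largest rise and the 15 of largest fall, taken from called genes that have a symbol and no overlap, up to 4 called members of each list (or 2 tested members where none was called), and a set looked up always; every tested gene of this rule is named but 1, which is not reported here, and further list members are named for their role. The groups, lists and named genes were chosen with earlier results of these data known. Alternatives were other scalings and filters, slide, scan day and replicate number as blocks, and single arrays left out.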

Additional observations from a re-analysis of the deposited data

Results flagged for a closer look

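In 26 of 312 groups of values tested, 1 array lay far from the others of its group by Dixon's criterion; chance gives about 1 in 20 such groups. List levels are means over the mean of all genes, and gene levels are log2 signal minus the array's 75th percentile.

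Scid 3 Gy replicate 2 was high in the level of the B cell receptor list (0.04, others -0.49 to -0.36), the interferon list (1.03, others -0.52 to -0.07), Ifit3 (3.86, others at most -0.01), Btla (-1.22, others -4.1 to -3.5), Cd6 (-0.04, others -3.47 to -2.97) and Cxcr4 (0.5, others -1.55 to -1.09). Scid 3 Gy replicate 3 was low in globin genes (8.15, others 8.91 to 9.22) and in Pf4 (10.17, others 11.19 to 11.49). Replicate 1 was high in Olfr477 (2.45, others -0.56 to -0.3), replicate 4 in Myh6 (4.27), and replicate 5 low in Cd4 (4.96, others 5.4 to 5.49).

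ATM-KO 4 Gy replicate 2 was high in the B cell genes Cd79b (5.72, others 3.05 to 3.91) and Pou2af1 (3.2, others 1.06 to 1.67) and in Cd74 (4.96, others 2.89 to 3.65). Replicate 6 was low in BCL2 family genes (-0.82, others 0.58 to 1.19) and in Ccng1 (-2.41, others 1.08 to 2.51). Replicate 3 was low in Csf1r (5.12, others 5.83 to 6.18) and in Alas2 (11.08, others 12.04 to 12.59), replicate 5 high in Cxcr4 (2.09, others 0.06 to 0.54) and replicate 1 in Jund (7.82, others 5.21 to 6.16).

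Scid 0 Gy replicate 4 was high in the B cell receptor list (1.25, others -1.05 to -0.49) and the T cell factor list (0.58, others -1.72 to -1.41) and low in NK cell genes (-0.43, others 0.55 to 0.92). ATM-KO 0 Gy replicate 2 was high in hepatocyte genes (2.9, others -1.68 to -1.21), and replicate 1 in genes of double-strand break repair (-1.34, others -1.56 to -1.51) and of Toll-like receptors (0.36, others -0.2 to -0.09).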

How the results depend on the processing

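The number of genes called in Scid 3 Gy against ATM-KO 4 Gy, 448 as reported, was 0 after normexp background correction with an offset of 50. Quantile normalization gave 685, spike-in scaling 6012 and no filter on dim probes 7. The number was 6 with the array median and 820 with the percentile of probes detected on all arrays. It was 0 with slide as a fixed block, 234 with scan day as a fixed block, 2226 with array weights, 3685 with the share of bright probes as a covariate and 74 with only the compared arrays in the fit. It was 341 (279 higher and 62 lower) when a probe had to be above background on every array, 543 with the mean of a gene's probes, 301 with the authors' deposited matrix, 450 with slide as a random block and 652 with the 21 Scid and ATM-KO arrays. With 1 array left out it ran from 6 to 1071, and it was 38 without the liver-bright ATM-KO 4 Gy array (replicate 3) and 1465 without both interferon-high ones. The cause of these changes was not tested.

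At 0 Gy the 19 calls became 0 under normexp, quantile normalization, the array median, the percentile of detected probes, spike-in scaling, no filter, the mean of probes, the authors' deposited matrix, slide as a fixed block and only the compared arrays, where limma gave 94 to 2072 genes at an unadjusted p under 0.05. They became 1 when a probe had to be above background on every array, 1331 with array weights and 53 with the 21 Scid and ATM-KO arrays, and ran from 0 to 203 with arrays left out. The difference of responses kept 0 calls in all alternatives run but spike-in scaling, which gave 1953.

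With the replicate number as a block, 1918 genes were called in irradiated and 69 in sham blood. The pairing has no base in the labels: same-numbered mice had correlations of deviations from -0.23 to 0.12. Only Scid 3 Gy replicate 4 correlated best with its own number (0.1). Scid replicates 1, 2, 3 and 5 did so with ATM-KO 4 Gy replicates 6, 1, 2 and 3 (0.41, 0.35, 0.26 and 0.16).

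Over 102 named genes and 3002 alternative values, 2252 kept direction and side of the threshold, 579 kept the direction and lost the call, 74 gained one and 97, in 25 genes, changed sign. None of the 448 called genes was among those 25. After normexp, Ccng1 was at -0.03, Cd3e at -0.06, Epb42 at -0.08 and Klrd1 at -0.1. After quantile normalization, Cd3e was at -0.25, Cd4 at -0.02, Cox6a1 at -0.51, Gadd45a at -0.02, Hba-a1 at -0.02 and Ube2c at -0.02. With the array median, Ccng1 was at -0.09, Cd3e at -0.21, Cox6a1 at -0.23, Epb42 at -0.16 and Klrd1 at -0.14. With the percentile of probes detected on all arrays, Ccng1 was at -0.2, Cd3e at -0.32, Cd4 at -0.06, Cox6a1 at -0.34, Epb42 at -0.27, Gadd45a at -0.11, Hba-a1 at -0.11, Klrd1 at -0.25, Tlr7 at -0.06 and Ube2c at -0.09. With spike-in scaling, Cd8a was at 0.12, Ncr1 at 0.52, Csf1r at 0.4, Slc4a1 at 0.54, Ifit3 at 0.38, Alb at 0.04, Apoa2 at 0.08, Bax at 0.83, Klf6 at 0.29, Mcl1 at 0.44 and Mki67 at 0.76. With slide as a fixed block, Ccng1 was at -0.02, Bax at 0.2, Bcl2l1 at -0.05, Cox6a1 at -0.17, Epb42 at -0.34 and Ube2c at -0.07. With scan day as a fixed block, Cox6a1 was at -0.13 and Epb42 at -0.17. With array weights, Ccng1 was at -0.46 and Klrd1 at -0.23. With the share of bright probes as a covariate, Ccng1 was at -0.01. With the replicate block, Ccng1 was at -0.18 and Klrd1 at -0.22. With the authors' deposited matrix, Cox6a1 was at -0.13, Epb42 at -0.06 and Klrd1 at -0.05. With the mean of all probes of a gene, Epb42 was at -0.18 and Tlr7 at -0.13. Without both interferon-high ATM-KO 4 Gy arrays, Ncr1 was at 0.09, Ifit3 at 0.9, Bax at 0.45 and Mki67 at 0.07. Without ATM-KO 4 Gy replicate 3, Cd3e was at -0.12, Alb at 0.95, Cox6a1 at -0.08, Epb42 at -0.09 and Klrd1 at -0.03. With 1 array left out at a time, Alb ran from -1.71 to 0.95, Bax from -0.4 to 0.17, Ccl5 from -0.24 to 0.8, Ccng1 from -0.53 to 0.45, Cd3e from -0.12 to 0.2, Cox6a1 from -0.18 to 0.21, Epb42 from -0.14 to 0.34, Gzma from -0.03 to 1.1, Ifit3 from -1.42 to 0.08, Klrd1 from -0.39 to 0.39, Mki67 from -0.32 to 0.07, Myh6 from -0.19 to 1.26 and Slc4a1 from -0.65 to 0.13.

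Signal over background limits the genes that were not well above background in Scid 3 Gy, for which the folds are lower bounds. Scaling sets the zero of every difference, since spike-in scaling moved the median of all genes to 1.08.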
